A study of Homo sapiens with 12 samples.

Results

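The 10 genes described here encode cyclins, cyclin-dependent kinases (CDKs) and CDK inhibitors that act in G1, the phase before DNA replication. The rule lists them by symbol, out of 58288 genes in the count table, and uses no measured value. The set was nevertheless chosen with earlier results of these data known. The set held the D cyclins *CCND2* and *CCND3*, the E cyclins *CCNE1* and *CCNE2*, the kinases *CDK4* and *CDK6*, the CIP/KIP inhibitors *CDKN1A* (p21) and *CDKN1B* (p27), and the INK4 inhibitors *CDKN2C* (p18) and *CDKN2D* (p19). Other genes of these families, among them *CCND1* and *CDKN2B*, were not in the set and are described below. All 10 members passed the filter on low counts in each comparison.

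RNA of the human promyelocytic leukemia cell line HL-60/S4 was sequenced in 12 libraries, 3 in each of 4 groups. Promyelocytes were the undifferentiated cells, and granulocytes were the same line after 4 days in all-trans retinoic acid (ATRA) at 1 µM, which turns it into a granulocytic form. Each form received TNF-α at 16 ng/mL or the same volume of water as vehicle for 2 h, in medium supplemented with calcium, at passage 8. The 3 libraries of a group came from 3 flasks of 1 seed-lot, so p-values measure the spread between flasks of a single line. The study ran the promyelocyte and granulocyte experiments independently, so cell form and experiment cannot be told apart in any comparison of levels between the forms, whereas each response to TNF-α was measured against vehicle flasks of its own experiment. ATRA was present in granulocyte flasks with and without TNF-α.

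D cyclins bind CDK4 or CDK6 and begin the phosphorylation of the retinoblastoma protein, which releases E2F transcription factors. E cyclins, which E2F induces, then activate CDK2 and complete that step at the start of S phase. INK4 inhibitors bind CDK4 and CDK6 alone, while CIP/KIP inhibitors bind cyclin-CDK complexes and block CDK2. In myeloid cells ATRA-induced granulocytic differentiation is known to end in G1 arrest.

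Library totals ranged from 22829189 to 31895061 read pairs assigned to genes, and the floor of 3 counts was equal to between 0.0946 and 0.136 CPM, the unit of level used below, in which a count is divided by its library's TMM-scaled size. Replicates differed by 3.37 to 12.7 times the variance that sampling gives, the highest values being those of TNF-α promyelocyte replicate 1. The cytokine's own targets showed the treatment in both forms. *NFKBIA*, an inhibitor of NF-κB that NF-κB induces, rose from 23.3 ± 1.22 to 345.2 ± 2.17 CPM (mean ± SD, n = 3) in promyelocytes and from 13.1 ± 0.565 to 603.3 ± 30.1 CPM in granulocytes. The 9 granulocytic markers summed to 277.3 to 293.8 CPM in vehicle promyelocytes and to 5333 to 5593 CPM in vehicle granulocytes, and all 9 were called higher in the latter. The 7 promyelocytic markers summed to 7574 to 8422 and 2514 to 2743 CPM in the same groups, with the granule enzyme *MPO* still at 2020 ± 92.3 CPM in vehicle granulocytes. Of these 7, 5 were called lower in vehicle granulocytes and 2 higher. Of all 17118 genes tested between the vehicle groups, 36.6% were called higher in granulocytes and 38.5% lower. After TNF-α the promyelocytic markers summed to 6275 to 7180 CPM in promyelocytes, where 5 of the 7 were called lower, and to 2348 to 2573 CPM in granulocytes, where 2 of the 6 tested were. In granulocytes *CD33* went from 168.6 to 115 CPM and *CEBPE* from 211.2 to 91.9 CPM. Both had been higher in vehicle granulocytes than in vehicle promyelocytes (126.9 and 135.6 CPM). The granulocytic markers summed to 380.9 to 400.5 CPM in TNF-α promyelocytes, where 2 of the 9 were called higher and 1 lower. In TNF-α granulocytes they summed to 5850 to 6232 CPM, although 3 of the 9 were called higher and 4 lower (median log2 fold change -0.0006). The part of these shifts in the responses of the 10 genes was not tested. The 6 monocyte and macrophage markers summed to 49.1 to 51.3 CPM in vehicle granulocytes and 30.2 to 34 CPM after TNF-α, nearly all of it *CSF1R*. The sums of the 3 erythroid markers were at most 0.261 CPM and those of the 3 lymphoid markers at most 5.57 CPM.

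Sequences upstream of 3 of the genes are shown because *CDKN1A* had the largest response of the set, *CDKN2D* fell with TNF-α in both forms, and *CDK4* carries a repeated motif. Each is the 250 bases before a RefSeq gene start (GRCh38.p14), 5′ to 3′ on the strand of the gene. Capitals mark the GC box GGGCGG, which Sp1-family factors bind, or its reverse complement, in *CDKN1A* (chr6:36678464-36678713, plus strand) and *CDKN2D* (chr19:10568980-10569229, minus strand). In *CDK4* (chr12:57752311-57752560, minus strand) capitals mark the E-box CACGTG, which MYC-MAX dimers bind.
CDKN1A: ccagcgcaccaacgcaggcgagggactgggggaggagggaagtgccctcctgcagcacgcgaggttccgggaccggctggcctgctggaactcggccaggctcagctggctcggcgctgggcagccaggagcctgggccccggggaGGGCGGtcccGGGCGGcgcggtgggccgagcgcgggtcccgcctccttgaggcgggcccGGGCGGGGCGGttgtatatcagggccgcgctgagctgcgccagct
CDKN2D: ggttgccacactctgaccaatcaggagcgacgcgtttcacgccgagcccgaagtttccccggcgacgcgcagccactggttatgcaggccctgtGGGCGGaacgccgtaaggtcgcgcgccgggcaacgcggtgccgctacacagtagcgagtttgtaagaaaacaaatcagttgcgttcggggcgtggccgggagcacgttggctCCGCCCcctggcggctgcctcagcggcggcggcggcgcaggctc
CDK4: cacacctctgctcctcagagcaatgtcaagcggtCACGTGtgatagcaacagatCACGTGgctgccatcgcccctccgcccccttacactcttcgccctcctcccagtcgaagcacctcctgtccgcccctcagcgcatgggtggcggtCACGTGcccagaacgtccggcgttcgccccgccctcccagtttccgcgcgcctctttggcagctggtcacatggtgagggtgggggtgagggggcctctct
The *CDKN1A* window held 4 GC boxes, of which the last pair overlap, and the *CDKN2D* window held 2. Windows were given for 8 of the 10 genes, 13 windows in all, and not for *CCND2* and *CCNE2*. GC boxes stood in 10 of the 13 windows, against 42.6% of the 35116 windows of all genes. An E-box stood in 3 of the 13 windows, against 6.34% of all. The *CDK4* window held 3 E-boxes, and 0.0797% of all windows held 3 or more. No member window held TATAAA (10.7% of all windows), the E2F motifs TTTCCCGC or TTTGGCGC (1.93%) or a κB motif (5.21%), on either strand, which says only that these letters are not in these windows.

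**Figure D1:**
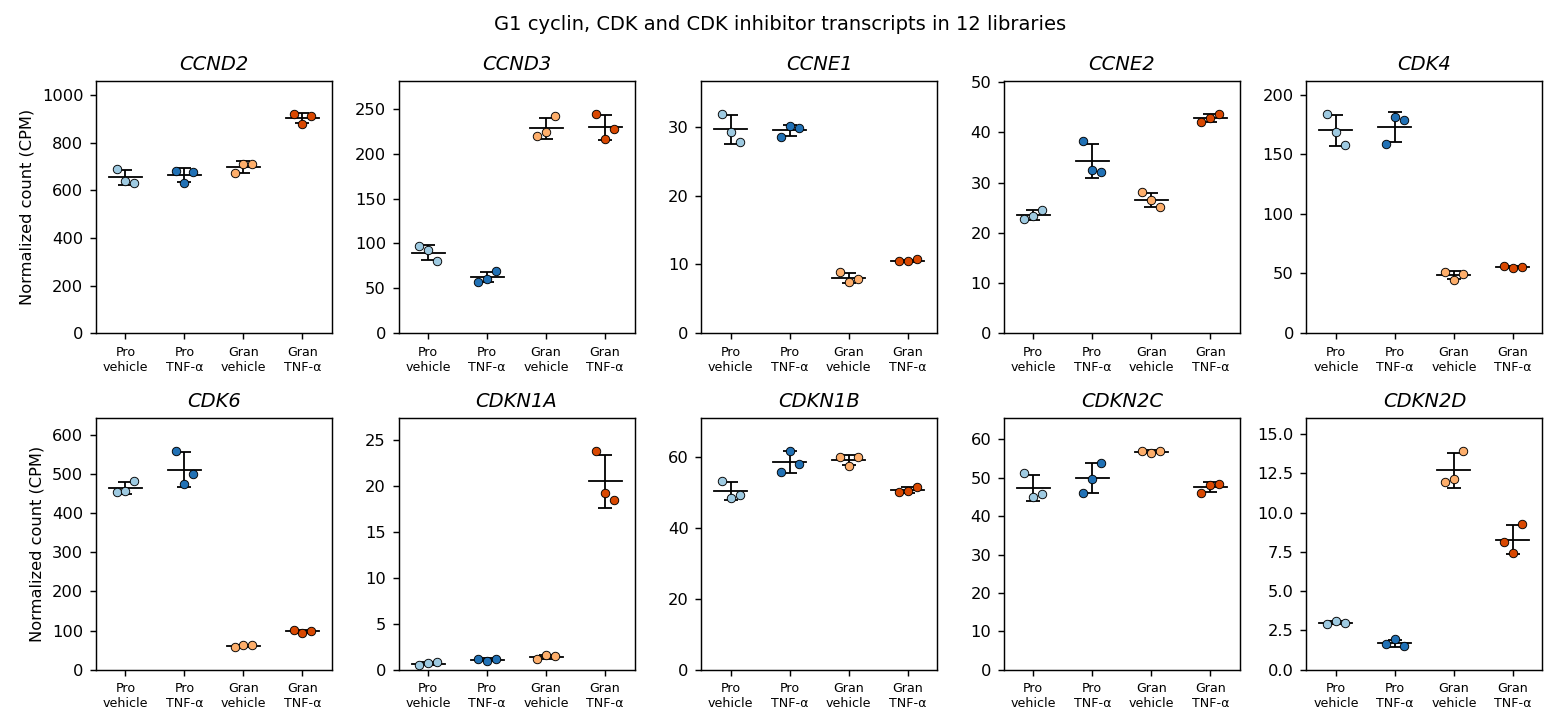
Normalized counts (CPM, linear axes from 0) of the 10 genes in each library of the 4 groups; points are libraries, bars the mean ± SD (n = 3). CDKN1A lies between 0.49 and 1.59 CPM in 9 libraries and between 18.4 and 23.8 CPM in the 3 TNF-α granulocyte libraries, while CDK6, CDK4 and CCNE1 separate the cell forms more than the treatments.

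After TNF-α, promyelocytes held more *CCNE2* and *CDKN1B* RNA and less *CCND3* and *CDKN2D* RNA. In granulocytes 9 of the 10 genes changed: *CDKN1A* rose 14.1-fold, all but one of the cyclins and both kinases rose, and *CDKN1B*, *CDKN2C* and *CDKN2D* fell. The gene without a call in granulocytes was *CCND3*. A gene is called where its adjusted p was under 0.05 in edgeR's quasi-likelihood test with Benjamini-Hochberg adjustment over all genes tested. In promyelocytes 2 of the 10 genes were called higher and 2 lower, where 14.8% of all 16250 genes tested were called, 8.15% higher and 6.65% lower. Genes called higher were 55.1% of all calls in this fit and 46.6% with all 12 libraries in 1 fit, in which 2 of the 10 genes were again called higher and 2 lower. In granulocytes 6 were called higher and 3 lower, where 49.2% of 16944 genes were called, 24.4% higher and 24.8% lower. The 3 flasks of the TNF-α group did not overlap the vehicle flasks for 5 of the 10 genes in promyelocytes, against 30.9% of all genes (13.7% higher and 17.1% lower), and for 9 in granulocytes, against 55.1% (28.4% higher and 26.7% lower). In bulk RNA a fall in level does not tell fewer cells with a transcript from less transcript in each cell.

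**Figure D2:**
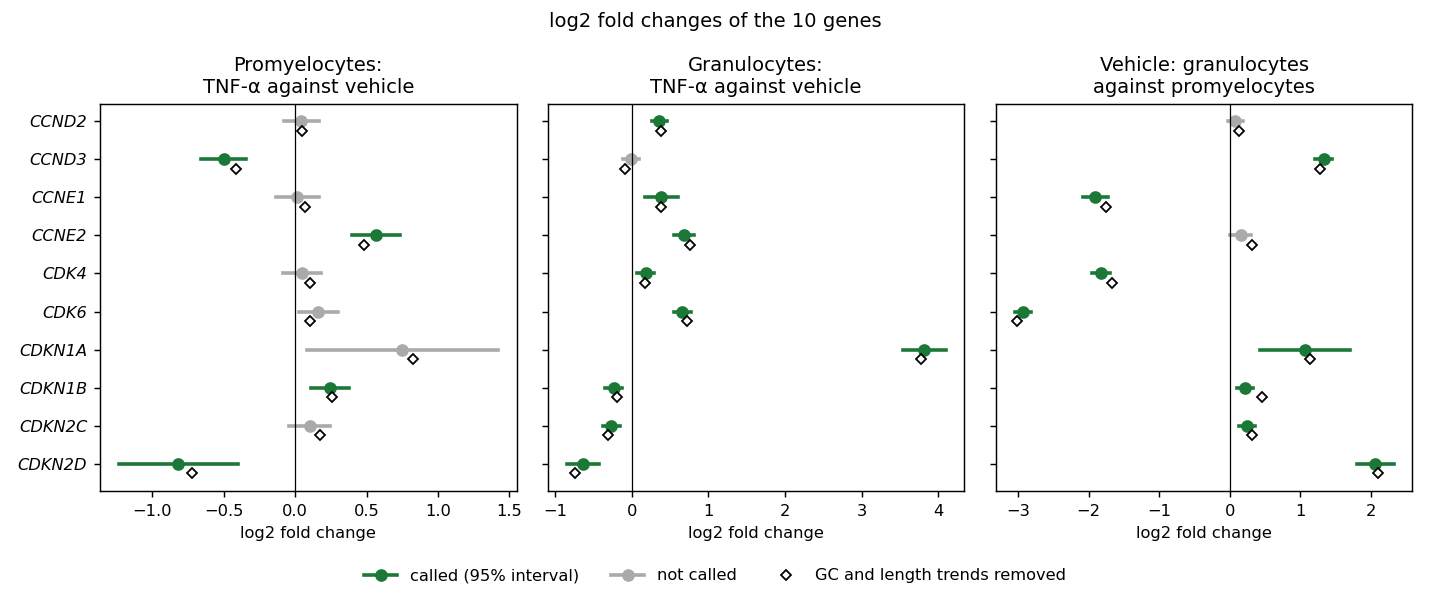
Log2 fold changes of the 10 genes (x axes, which differ between panels) for TNF-α against vehicle in promyelocytes, in granulocytes, and for vehicle granulocytes against vehicle promyelocytes; circles with bars are estimates with 95% intervals, green where called, and diamonds are estimates with the trends with GC content and length removed. CDKN1B lies to the right of 0 in promyelocytes and to the left of 0 in granulocytes, and each estimate keeps its side of 0 with the trends removed.

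Of the D cyclins, *CCND2* (chromosome 12, 4273772 to 4305350; all gene positions are on hg38) was the most abundant member per length in all 4 groups. It stood at 692, 641 and 631 CPM in the vehicle promyelocytes and at 683, 630 and 678 CPM in the TNF-α promyelocytes. The vehicle granulocytes had 672, 712 and 712 CPM and the TNF-α granulocytes 922, 881 and 912 CPM. The promyelocyte groups overlapped, and each TNF-α granulocyte flask was above all 9 other libraries. The log2 fold change was 0.36 (SE 0.0501, adjusted p = 1.59e-07) in granulocytes and 0.04 (SE 0.0580, adjusted p = 0.673; 95% interval -0.08 to 0.17) in promyelocytes. The responses differed by 0.35 on the log2 scale (SE 0.0757, adjusted p = 0.000934).

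*CCND3* (chromosome 6, 41934933 to 42050357), the D cyclin of many blood lineages, was called in promyelocytes and not in granulocytes. Its levels were 96.7, 92.4 and 80.1 CPM in vehicle promyelocytes and 57.5, 60.7 and 68.8 CPM after TNF-α, so that the groups did not overlap. Granulocytes had 219.7, 224.5 and 242.2 CPM with vehicle and 244.7, 216.5 and 228 CPM with TNF-α, overlapping. It fell by 0.50 on the log2 scale in promyelocytes (SE 0.0742, adjusted p = 5.76e-05), while the granulocyte value was -0.01 (SE 0.0516, adjusted p = 0.9; 95% interval -0.11 to 0.10). The difference between the responses was 0.53 (SE 0.0989, adjusted p = 0.000207). With the trends with GC content and length removed this difference was 0.32 (adjusted p = 0.000838). The granulocyte value was then -0.09 (adjusted p = 0.064).

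*CCNE2* (chromosome 8, 94879770 to 94896678), one of the cyclins that activate CDK2, rose in both forms. Vehicle promyelocytes had 22.6, 23.4 and 24.6 CPM and TNF-α promyelocytes 38.3, 32.5 and 32.2 CPM. Granulocytes had 28, 26.5 and 25.1 CPM with vehicle and 42.1, 42.9 and 43.7 CPM with TNF-α. All TNF-α flasks were above the vehicle flasks of their experiment. The log2 fold change was 0.57 in promyelocytes (SE 0.0812, adjusted p = 3.75e-05) and 0.68 in granulocytes (SE 0.0630, adjusted p = 1.32e-11). A difference between the responses did not pass the test (0.15, SE 0.102, adjusted p = 0.307, 95% interval -0.06 to 0.36), although it did with the trends with GC content and length removed (0.28, adjusted p = 0.02).

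Its paralog *CCNE1* (chromosome 19, 29811898 to 29824308) rose in granulocytes. Its levels there were 8.82, 7.38 and 7.82 CPM with vehicle and 10.4, 10.4 and 10.7 CPM with TNF-α. In promyelocytes they were 31.9, 29.3 and 27.8 CPM and 28.5, 30.1 and 29.8 CPM, which overlapped. The granulocyte log2 fold change was 0.38 (SE 0.105, adjusted p = 0.00238), and the promyelocyte value was 0.02 (SE 0.0718, adjusted p = 0.91; 95% interval -0.13 to 0.17). The responses differed by 0.41 (SE 0.118, adjusted p = 0.0124), a call that was lost without granulocyte vehicle replicate 2 (0.35, adjusted p = 0.0535) and with no filter on low counts (0.32, adjusted p = 0.0894).

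*CDK6* (chromosome 7, 92604921 to 92836594), a D cyclin kinase that also holds back myeloid differentiation, rose in granulocytes from 58.5, 62.5 and 63.4 CPM to 101, 94.2 and 99.3 CPM. The log2 fold change was 0.66 (SE 0.0531, adjusted p = 3.47e-13). In promyelocytes the vehicle flasks had 455, 455.8 and 481 CPM and the TNF-α flasks 559.7, 474.8 and 499.5 CPM, which overlapped (log2 fold change 0.16, SE 0.0647, adjusted p = 0.101, 95% interval 0.03 to 0.30). That gene was called in promyelocytes when no filter was applied (adjusted p = 0.0414) and without TNF-α promyelocyte replicate 2 (adjusted p = 0.0449). The responses differed by 0.53 (SE 0.0840, adjusted p = 2.48e-05).

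*CDK4* (chromosome 12, 57747727 to 57756013), the other D cyclin kinase, rose by little. Granulocytes had 51.2, 44.9 and 49.2 CPM with vehicle and 56.4, 54.3 and 55.1 CPM with TNF-α (log2 fold change 0.18, SE 0.0575, adjusted p = 0.01). This call was lost without granulocyte vehicle replicate 2 (0.13, adjusted p = 0.102). Promyelocytes had 183.8, 168.5 and 157.4 CPM and 158.4, 180.8 and 178.9 CPM, which overlapped (log2 fold change 0.05, SE 0.0650, adjusted p = 0.684). A difference between the responses of *CDK4* did not pass the test (0.17, SE 0.0917, adjusted p = 0.201, 95% interval -0.02 to 0.36).

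*CDKN1A* (chromosome 6, 36676460 to 36687339), the inhibitor p21 that blocks cyclin E-CDK2, had the largest fold change of the set. Its raw counts were 30, 48 and 45 in the vehicle granulocytes and 527, 535 and 407 in the TNF-α granulocytes, or 1.16, 1.59 and 1.51 against 23.8, 19.2 and 18.4 CPM. The log2 fold change was 3.82 (SE 0.137, adjusted p = 9.39e-24), which ranked 162 by p among the 16944 genes tested. Promyelocytes had 15, 19 and 24 counts with vehicle and 32, 27 and 37 with TNF-α, or 0.49, 0.70 and 0.83 against 1.20, 0.96 and 1.17 CPM. These groups did not overlap, but the log2 fold change of 0.75 did not pass the test (SE 0.320, adjusted p = 0.133, 95% interval 0.08 to 1.42). The response was larger in granulocytes by 3.11 on the log2 scale (SE 0.326, adjusted p = 4.54e-08).

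*CDKN1B* (chromosome 12, 12715058 to 12722371), the inhibitor p27, was called in opposite directions. Promyelocytes had 53.2, 48.6 and 49.3 CPM with vehicle and 55.8, 61.8 and 58.2 CPM with TNF-α. Granulocytes had 60.1, 57.5 and 60 CPM with vehicle and 50.1, 50.5 and 51.6 CPM with TNF-α. The groups did not overlap in either form. The log2 fold change was 0.24 in promyelocytes (SE 0.0630, adjusted p = 0.0116) and -0.24 in granulocytes (SE 0.0545, adjusted p = 0.000414), and the responses differed by -0.44 (SE 0.0816, adjusted p = 0.000192). In promyelocytes the call was lost without vehicle replicate 2 (0.22, adjusted p = 0.0826) and without TNF-α replicate 2 (0.21, adjusted p = 0.0744). The granulocyte call and the difference held in each fit that left out 1 library.

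The INK4 inhibitor *CDKN2D* (chromosome 19, 10566462 to 10569059) fell in both forms. Its levels in promyelocytes were 2.94, 3.09 and 2.97 CPM with vehicle and 1.62, 1.93 and 1.48 CPM with TNF-α, from 84 to 90 and 43 to 54 counts. In granulocytes they were 12, 12.2 and 14 CPM with vehicle and 8.14, 7.42 and 9.27 CPM with TNF-α. No TNF-α flask reached a vehicle flask of its experiment. The fall was 0.82 on the log2 scale in promyelocytes, where the fitted value was -0.82 (SE 0.199, adjusted p = 0.00743), and the granulocyte value was -0.64 (SE 0.105, adjusted p = 3.02e-06). The difference of 0.22 between the responses did not pass the test (SE 0.202, adjusted p = 0.481, 95% interval -0.20 to 0.63), and it was -0.03 with the trends with GC content and length removed.

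*CDKN2C* (chromosome 1, 50960745 to 50974633), the other INK4 inhibitor of the set, fell in granulocytes from 57.1, 56.5 and 57 CPM to 46.1, 48.1 and 48.5 CPM, with no overlap. Its log2 fold change there was -0.27 (SE 0.0552, adjusted p = 8.81e-05). Promyelocytes had 51.2, 44.9 and 45.8 CPM and 46.1, 49.8 and 53.8 CPM, which overlapped (log2 fold change 0.10, SE 0.0698, adjusted p = 0.385). With the trends removed the promyelocyte value was 0.17 and was called (adjusted p = 0.0255). The responses differed by -0.33 (SE 0.0904, adjusted p = 0.00722).

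Over the set, 5 genes responded more upward in granulocytes than in promyelocytes (*CCND2*, *CCND3*, *CCNE1*, *CDK6*, *CDKN1A*) and 2 more downward (*CDKN1B*, *CDKN2C*). Among all 18124 genes tested for this difference 24% were called, 14.1% upward and 9.88% downward. Upward calls were 58.9% of all calls in this fit, 48.4% with DESeq2 size factors, 45.8% with DESeq2, 44.2% with no filter on low counts and 49.8% with the trends with GC content and length removed, so the balance of the split turned over between fits.

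GC content bears on these values, because the response of all genes moved with it. In promyelocytes the median log2 fold change after TNF-α was 0.09 for the 1776 genes with 35 to 40% GC in their exons and -0.11 for the 1059 genes with 60 to 65%. In granulocytes the same bins had -0.08 and 0.10. The members span this range, from *CCNE2* (39.9%) and *CDK6* (40.4%) through *CCND2* (46%), *CDKN1B* (47.6%), *CDK4* (52.8%) and *CCNE1* (53.1%) to *CDKN2C* (56.9%), *CDKN1A* (57.8%), *CCND3* (58.3%) and *CDKN2D* (62.1%). With the trends with GC content and length taken out of every library, all 4 promyelocyte calls and all 9 granulocyte calls were still made. *CCND3* in promyelocytes was then at -0.42, *CCNE2* at 0.49 in promyelocytes and 0.76 in granulocytes, and *CDKN2D* at -0.72 and -0.75. The *CDKN1A* response in granulocytes was 3.77.

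Shares within pairs of paralogs do not depend on library size. They were not recomputed with the trends with GC content and length removed, and in each pair the paralog whose share is given had the lower GC content. Per length, *CCND2* made up 85.6% ± 0.809 of the *CCND2* and *CCND3* RNA of vehicle promyelocytes and 89.6% ± 0.887 after TNF-α (SD, n = 3). In granulocytes the share went from 71.2% ± 0.780 to 76.2% ± 0.735. *CCND2* was called higher in granulocytes and *CCND3* lower in promyelocytes, and the share in this pair was higher after TNF-α in both forms. The pair leaves out the D cyclin *CCND1*, so these are not shares of all D cyclin RNA. *CCND1* went from 17.25 to 37.95 CPM per kb in promyelocytes and from 42.86 to 100.6 CPM per kb in granulocytes. The share of *CCNE2* among the E cyclins was 31.6% ± 2.38 and 40.3% ± 3.06 in promyelocytes and 65.8% ± 1.49 and 70.3% ± 0.211 in granulocytes. *CDKN2C* made up 87.7% ± 0.989 and 93.1% ± 1.10 of the INK4 pair in promyelocytes and 67% ± 1.85 and 72.3% ± 2.16 in granulocytes. That pair leaves out *CDKN2A* and *CDKN2B*, both called higher in granulocytes, so these are not shares of all INK4 RNA. *CDK6* made up 24.8% ± 1.85 and 31.5% ± 0.436 of the kinase pair in granulocytes. In these 7 comparisons the groups did not overlap, and each had p = 0.1 in the two-sided exact permutation test (adjusted over 8 comparisons, 0.114), the smallest p that 3 against 3 flasks allow. The direction of a share depends on which paralog is the numerator. The shares restate the counts of genes tested above and add no separate evidence, and pairs of other genes were not counted in this way. The share of *CDK6* in promyelocytes was 41.4% ± 2.57 and 43.4% ± 3.86 (exact permutation p = 0.6), and the difference changed sign without TNF-α replicate 1, from 1.93 to -0.26 percentage points.

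**Figure D3:**
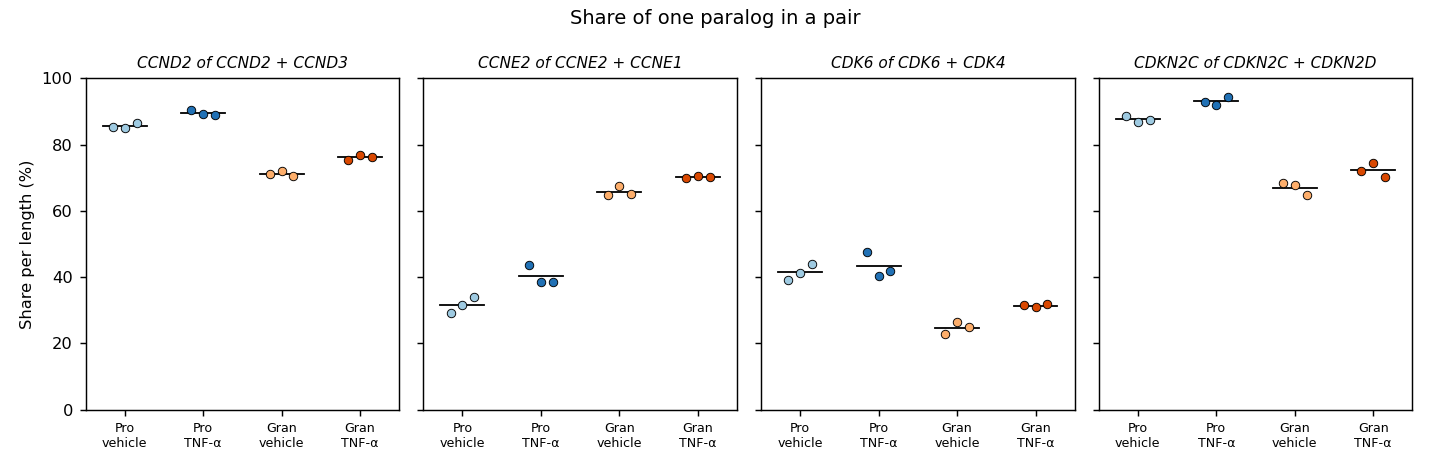
Share of one paralog in each of 4 pairs, per length (%, axis 0 to 100), in each library of the 4 groups; points are libraries and lines the means (n = 3). The 3 TNF-α points lie above the 3 vehicle points in 7 of the 8 comparisons, the exception being CDK6 in promyelocytes.

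Levels of the members can be ordered only per length. In vehicle promyelocytes *CCND2* led with 91.5 ± 4.58 CPM per kb, followed by *CDK4* with 53.6 ± 4.18, *CDK6* with 37.8 ± 1.21, *CDKN1B* with 17.9 ± 0.892, *CCND3* with 15.5 ± 1.49 and *CDKN2C* with 14.3 ± 1.03 CPM per kb. *CCND3* and *CDKN2C* overlapped there. Below them stood *CCNE1* at 11.6 ± 0.821, *CCNE2* at 5.35 ± 0.222, *CDKN2D* at 1.996 ± 0.0528 and *CDKN1A* at 0.22 ± 0.056 CPM per kb. In vehicle granulocytes *CCND2* again led with 97.6 ± 3.28 CPM per kb, but *CCND3* was next with 39.4 ± 2.04, then *CDKN1B* with 21.1 ± 0.524 and *CDKN2C* with 17.1 ± 0.101 CPM per kb. *CDK4* followed with 15.3 ± 1.02, *CDKN2D* with 8.44 ± 0.729, *CCNE2* with 6.03 ± 0.334, *CDK6* with 5.01 ± 0.213, *CCNE1* with 3.14 ± 0.288 and *CDKN1A* with 0.46 ± 0.0758 CPM per kb. No neighbours overlapped in that order. After TNF-α the *CDKN1A* level of granulocytes, 6.71 ± 0.962 CPM per kb, overlapped those of *CDK6* at 8.01 ± 0.288 and *CDKN2D* at 5.51 ± 0.622 CPM per kb, and *CDKN1B* overlapped *CDK4*. In TNF-α promyelocytes the only overlapping neighbours were *CCNE1* and *CCND3*.

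Between the vehicle groups, in which cell form and experiment cannot be told apart, the kinases and *CCNE1* were lower in granulocytes and 4 inhibitors and *CCND3* were higher. On the log2 scale *CDK6* differed by -2.93 (SE 0.0573, adjusted p = 1.66e-27), *CCNE1* by -1.91 (SE 0.0872, adjusted p = 2.42e-18) and *CDK4* by -1.83 (SE 0.0599, adjusted p = 6.19e-22). *CDKN2D* differed by 2.07 (SE 0.126, adjusted p = 2.82e-15), *CCND3* by 1.34 (SE 0.0596, adjusted p = 1.25e-18) and *CDKN1A* by 1.07 (SE 0.313, adjusted p = 0.0031). *CDKN2C* at 0.25 (SE 0.0571, adjusted p = 0.000256) and *CDKN1B* at 0.22 (SE 0.0552, adjusted p = 0.000773) differed by less. *CCND2* at 0.08 (adjusted p = 0.162) and *CCNE2* at 0.16 (adjusted p = 0.0516) were not called, but both were with the trends with GC content and length removed (0.13, adjusted p = 0.00955, and 0.32, adjusted p = 5.69e-05). Of the 10 genes 5 were called higher and 3 lower, where 75.1% of 17118 genes were called, 36.6% higher and 38.5% lower. The flasks did not overlap for 6 genes higher and 3 lower in granulocytes, against 76.6% of all genes, 38.2% higher and 38.4% lower. The response of *CDK6* to TNF-α in granulocytes, from 61.5 to 98.2 CPM, took place at a level below the 463.9 CPM of vehicle promyelocytes.

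Other genes of the pathway were taken from 5 lists, whose counts stand against 14.8% of all genes called in promyelocytes (8.15% higher, 6.65% lower) and 49.2% in granulocytes (24.4% higher, 24.8% lower). Of 20 other genes of the G1 to S machinery, 3 were called higher and 1 lower in promyelocytes, and 11 higher and 4 lower in granulocytes. Its median log2 fold changes were 0.08 and 0.22, where those of all genes were -0.01 and -0.0047. The promyelocyte count was near the share of all genes called. *CCND1*, the third D cyclin, rose in both, from 83.3 ± 5.67 to 183.3 ± 5.99 CPM (log2 fold change 1.16, SE 0.0600, adjusted p = 1.26e-11) and from 207 ± 10.5 to 486 ± 15.8 CPM (1.22, SE 0.0506, adjusted p = 1.04e-21). *CDKN2B*, the INK4 inhibitor p15, rose in promyelocytes from 1.56 ± 0.224 to 8.48 ± 0.378 CPM (2.47, SE 0.160, adjusted p = 4.23e-10) and in granulocytes from 2.99 ± 0.670 to 26.4 ± 1.45 CPM (3.14, SE 0.111, adjusted p = 5.78e-24). This INK4 gene rose in both forms, in which *CDKN2D* fell. *CDKN2A*, which encodes p16 and ARF, rose in granulocytes from 19.2 ± 0.525 to 29.1 ± 1.97 CPM (0.59, adjusted p = 9.1e-09), and *CCNA2*, the cyclin of S and G2, fell there from 101.8 ± 5.04 to 74.9 ± 1.46 CPM (-0.46, adjusted p = 2.5e-09). *CCNA1*, named after its values had been seen, had 0 to 2 counts in vehicle granulocytes and 18 to 28 after TNF-α, and 25 to 39 counts in all 6 promyelocyte libraries.

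Of 13 pocket proteins and E2F genes, 1 was called in each direction in promyelocytes, and 6 higher and 4 lower in granulocytes, with medians of 0.03 and 0.15. Over the alternative fits the granulocyte counts ran from 4 to 6 higher and from 2 to 4 lower. Those in promyelocytes ran from 0 to 1 higher and from 1 to 2 lower. *RBL2*, the pocket protein p130 of resting cells, fell in granulocytes from 168.3 ± 2.36 to 118.7 ± 1.62 CPM (-0.52, adjusted p = 1.13e-11), as did *TFDP2*, an E2F partner (-0.56, adjusted p = 4e-10). *E2F6*, a repressor, rose by 0.65 (adjusted p = 5.47e-11), and the activator *E2F3* by 0.43 (adjusted p = 1.68e-08).

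Of 22 E2F target genes of DNA replication, 1 was higher and 2 lower in promyelocytes, and 4 higher and 6 lower in granulocytes. Both counts were near the share of all genes called, and the median log2 fold changes were 0.01 and -0.03. *RRM2*, a subunit of ribonucleotide reductase, rose in promyelocytes (0.33, adjusted p = 0.000329), and *UHRF1*, which maintains DNA methylation, fell (-0.23, adjusted p = 0.00772; not called without vehicle replicate 2). In granulocytes *UHRF1* fell by 0.42 (fitted value -0.42, adjusted p = 3.08e-08), *PCNA*, the polymerase clamp, was at -0.23 (adjusted p = 0.000118) and *POLE*, a polymerase subunit, at 0.32 (adjusted p = 2.2e-06). The granulocyte counts of this list were the least stable, from 2 to 6 higher and from 2 to 7 lower over the alternative fits. They were 2 and 2 without granulocyte vehicle replicate 2, 2 higher without TNF-α replicate 1, and 3 lower without vehicle replicate 3 or TNF-α replicate 2. Between the vehicle groups, in which cell form and experiment cannot be told apart, all 22 were called lower in granulocytes, with a median of -1.53. Of all 17118 genes tested there, 38.5% were called lower.

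Of 20 genes of G2 and mitosis, 2 were higher and 3 lower in promyelocytes, while none was higher and 16 were lower in granulocytes, with a median log2 fold change of -0.25. The fits left 13 to 16 of them lower in granulocytes and none higher, and DESeq2 was among these fits. *CENPF*, a kinetochore protein, fell by 0.54 (fitted value -0.54, adjusted p = 3.81e-12), *CDC20*, the activator of the anaphase-promoting complex, by 0.44 (-0.44, adjusted p = 6.33e-08), *BUB1* by 0.37 (-0.37, adjusted p = 7.98e-08) and the spindle motor *KIF11* by 0.34 (-0.34, adjusted p = 4.25e-07). In promyelocytes both counts of this list went to 1 without vehicle replicate 2, TNF-α replicate 1 or TNF-α replicate 2, and the count of genes lower also went to 1 without vehicle replicate 1.

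Of 19 regulators of CDK inhibitor and cyclin D genes 17 passed the filter, and 4 were called higher and 7 lower in promyelocytes, and 8 and 8 in granulocytes, with medians of -0.08 and -0.07. *STAT5A*, which transmits cytokine signals to D cyclin genes, rose from 10.5 ± 1.20 to 22.7 ± 0.590 CPM in promyelocytes (1.13, adjusted p = 2.16e-08) and from 11.9 ± 0.421 to 75.3 ± 3.80 CPM in granulocytes (2.65, adjusted p = 6.75e-29). *NFKB1* rose by 1.38 (adjusted p = 2.77e-12) and 2.02 (adjusted p = 1.85e-28), and *KLF6*, an activator of *CDKN1A*, by 0.46 (adjusted p = 1.84e-05) and 1.26 (adjusted p = 2.62e-21). *CEBPE*, a factor of terminal granulocyte differentiation, fell from 135.6 ± 8.74 to 96.7 ± 5.28 CPM (-0.46, adjusted p = 1.42e-05) and from 211.2 ± 13.7 to 91.9 ± 8.13 CPM (-1.22, adjusted p = 2.6e-20). *MYC*, which activates *CCND2* and *CDK4* and represses *CDKN1A*, was named after its values had been seen. It stood at 1880 ± 115 and 797.3 ± 52.6 CPM in promyelocytes (-1.21, adjusted p = 1.37e-11) and at 78.5 ± 3.61 and 75.7 ± 6.59 CPM in granulocytes (-0.07, adjusted p = 0.341).

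**Figure D4:**
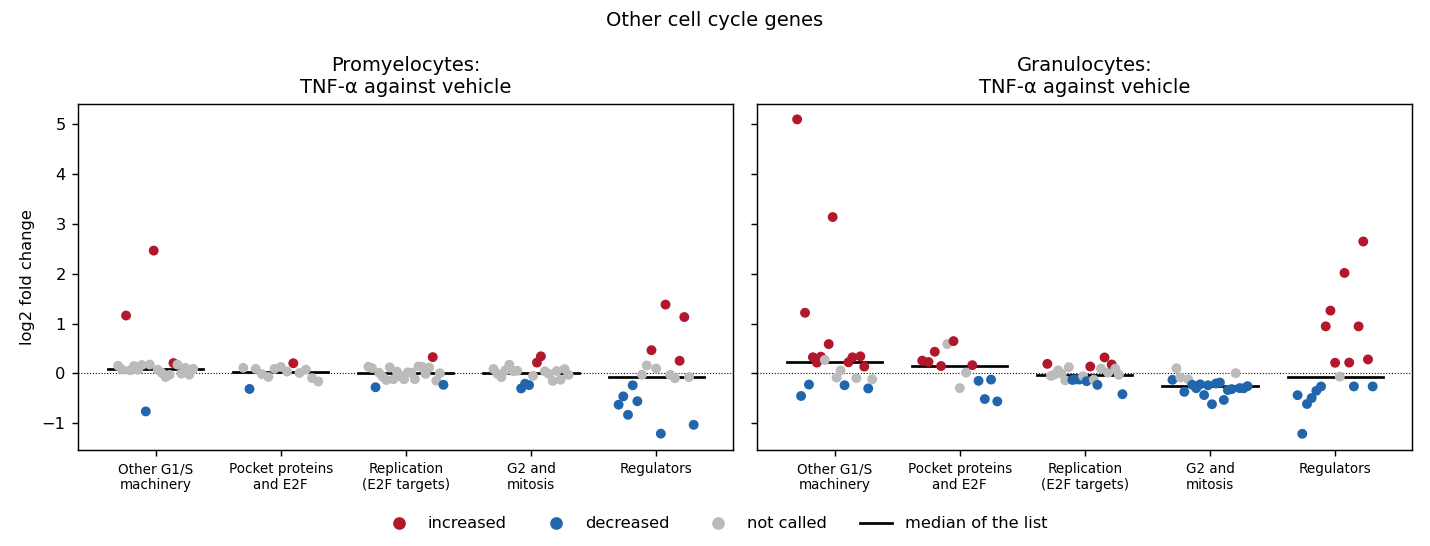
Log2 fold changes after TNF-α (y axis) of the genes of 5 lists in promyelocytes and granulocytes; each point is a gene, red where called higher, blue where called lower and grey where not called, and lines are list medians. The G2 and mitosis genes lie mostly below 0 in granulocytes, with 16 of 20 called lower.

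The genes whose pattern over the 12 libraries lay nearest to *CDKN1A* were *FFAR3*, *ADAMDEC1* and *ATP1B1*, at root mean square distances of 0.136, 0.175 and 0.213 in centred log2(CPM + 1) over 18124 genes compared. *ATP1B1*, a sodium pump subunit, had group means of 14.7, 17.4, 18.4 and 144 CPM in vehicle and TNF-α promyelocytes and vehicle and TNF-α granulocytes. *FFAR3*, a receptor for short fatty acids, had no count in vehicle promyelocytes and 11.1 CPM in TNF-α granulocytes. In the other groups its means were at most 0.249 CPM, and outside TNF-α granulocytes those of *ADAMDEC1* were at most 0.365 CPM. These are below the 1 CPM added before the log, which shrinks differences between genes at such levels. The nearest to *CCNE2* were *WDR11*, *NECAP1* and *PEA15*, at distances of 0.0859, 0.0877 and 0.0926. *WDR11* had 97.3, 130, 114 and 162 CPM in the same order of groups.

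Counting was strand-specific, so antisense neighbours such as *CCND2-AS1* and *CDK6-AS1* take no reads from the members on the strand counted. The genes annotated on the same strand within a member were small RNA genes in *CCND3* (*RNU6-761P*), *CDK4* (*MIR6759*) and *CDK6* (*RNU6-10P*) and the unnamed ENSG00000275560.1 in *CDKN1B*, and read pairs on both genes are left out by the counting program by default.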

How the data were processed

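RNA of 12 HL-60/S4 libraries was depleted of ribosomal RNA and sequenced as paired ends on an Illumina platform. Per the submitters' processing notes and the methods, reads were checked with FastQC 0.11.4, aligned to hg38 with STAR 2.5.3a and assigned to GENCODE genes with featureCounts 1.5.2, by strand, using primary alignments with both ends mapped. The authors deposited raw counts without normalization, with each gene's exon length in bases (an annotation value, not a measurement).

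The counts were tested with edgeR 4.0.16 in R 4.3.3 (TMM scaling, quasi-likelihood test, filterByExpr with a minimum count of 10 and a minimum total count of 15), while the study used DESeq2 1.16.1. TNF-α was compared with vehicle within each form (6 libraries), the responses were compared in a fit of all 12, and the vehicle groups in a fit of 6. P-values were adjusted by Benjamini-Hochberg over all genes tested, threshold 0.05. CPM were computed with TMM over all 12 libraries, and CPM per kb with the deposited lengths. Intervals are 95% intervals of the fit. Gene symbols were matched for 57532 of 58288 identifiers. Shares of paralogs were tested by exact permutation. GC content and length trends were removed with natural splines (5 degrees of freedom) per library. Each fit was tested on simulated counts with 200 changed genes.

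The members, lists and tests were chosen with earlier results of these data known. Genes named are the 10 members, treatment controls, up to 4 genes per list with the smallest adjusted p in either TNF-α comparison, and the 3 genes nearest in pattern to the member with the smallest adjusted p in each TNF-α comparison. *CCNA1*, *MYC* and *CD33* were named after their values had been seen. Promoter sequences come from RefSeq. Floors cover counting error only. The alternatives tried were DESeq2 1.42.0, its size factors, no filter on low counts, a replicate block, 1 fit of all libraries, removal of the trends, and leaving out each library in turn.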

Additional observations from a re-analysis of the deposited data

Results flagged for a closer look

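For 7 of the 10 genes the response to TNF-α differed between the cell forms by the test of the difference itself, given here on the log2 scale as granulocyte minus promyelocyte response. Of all 18124 genes tested for it 24% were called, 14.1% upward and 9.88% downward, a balance that turned over between fits. *CDKN1A* stood apart with 3.11 (SE 0.326, adjusted p = 4.54e-08). Positive differences were also found for *CDK6* at 0.53 (adjusted p = 2.48e-05), *CCND3* at 0.53 (adjusted p = 0.000207), *CCNE1* at 0.41 (adjusted p = 0.0124) and *CCND2* at 0.35 (adjusted p = 0.000934). Negative ones were found for *CDKN1B* at -0.44 (adjusted p = 0.000192), which was called in opposite directions in the forms, and *CDKN2C* at -0.33 (adjusted p = 0.00722). All 7 were called with the trends with GC content and length removed, where *CCND3* was at 0.32 and *CDKN2C* at -0.49. The *CCNE1* difference lost its call with no filter on low counts (0.32, adjusted p = 0.0894) and without granulocyte vehicle replicate 2 (0.35, adjusted p = 0.0535).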

How the results depend on the processing

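Counts of 4 and 9 called genes in promyelocytes and granulocytes rest on 3 flasks per group. Over the alternatives that kept all libraries, the 10 genes kept their direction and call in 57 of 60 fitted values in promyelocytes, 59 of 60 in granulocytes, 47 of 50 for the difference of responses and 46 of 50 between vehicle groups. Values that changed sign were all small and not called: *CCNE1* in promyelocytes with all 12 libraries in 1 fit (-0.00791) and without 1 library (from -0.0194 to 0.0614, below 0 without vehicle replicate 3), *CCND3* in granulocytes with all 12 libraries in 1 fit (0.0054) and without 1 library (from -0.0514 to 0.0359, above 0 without vehicle replicate 3, TNF-α replicate 2 or TNF-α replicate 3), and the *CDKN2D* difference with trends removed (-0.0318). The cause was not tested. With 1 library left out, the set had 1 to 2 genes called higher and all genes 653 to 1160 called lower in promyelocytes, and the *CDK6* share differed by -0.259 to 3.39 points there. The *CDKN2C* share in promyelocytes differed by 2.72 points from raw counts, which weight by length, against 5.38 per length. The replicate block left the calls of the set at 2 and 2, 6 and 3, 5 and 2, and 5 and 3. It moved the calls of all genes from 1324 higher and 1081 lower to 1012 and 821 in promyelocytes. Same-numbered flasks correlated at -0.105 to -0.00594 after removal of group means, so no pairing by number was seen, although 3 flasks per group cannot exclude one. *CDKN1A* in promyelocytes had 15 to 37 counts and an SE of 0.320, against 0.137 in granulocytes.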
